A study of Solanum lycopersicum var. cerasiforme with 6 samples.

Results

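Lycopene, the red pigment of ripe tomato, is built in plastids along a single chain of enzymes, and 8 genes of that chain were followed here in fruit with altered abscisic acid (ABA) supply. The genes were DXS1, GGPS2, PSY1, PSY2, PDS, ZISO, ZDS and CRTISO, chosen by gene identifier for their place in the pathway from precursor synthesis to lycopene. The choice was made with earlier results of these data known. They made up 8 of the 23269 annotated genes in the deposited table and 9 of its 31571 entries, since ZISO was listed in 2 entries. The annotation text of the table fitted the enzyme for 8 of 8 genes, although it numbered GGPS2 and PDS differently within their families.

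Mature green fruits of the cherry tomato cultivar XinTaiyang were injected with 25 μL of 10 mM ABA (ABA-treated fruits), of 1 mM nordihydroguaiaretic acid (NDGA), an inhibitor of ABA biosynthesis (NDGA-treated fruits), or of distilled water (CK). All 3 groups were stored in the dark at 20 °C and 90% relative humidity, and pericarp without seeds and sepals was taken at day 9. The study placed that day around the breaker stage on average. It reported faster ripening than CK after ABA and delayed ripening after NDGA. Day 9 was chosen there because the treatments then differed most clearly in ripening, so the groups were not at the same ripening stage. For RNA-seq, 2 libraries were made per group from fruits harvested in successive weeks, each from RNA pooled from 10 fruits. The deposited values were FPKM (sequenced fragments scaled to transcript length and to the mapped total), a level per length, and each was the authors' mean of both libraries of a group. No value per library was analysed here, so none of the differences below could be set against the spread between replicates or tested, and the number of fragments behind each value was not analysed here.

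Carotenoid synthesis starts from isoprenoid precursors of the plastid. Deoxyxylulose phosphate synthase (DXS) is the first enzyme of the methylerythritol phosphate route that supplies them, and geranylgeranyl diphosphate synthase (GGPS) joins the units into the substrate of the carotenoid branch. Phytoene synthase (PSY) makes the first, colourless carotene, the desaturases PDS and ZDS and the isomerases ZISO and CRTISO turn it into red lycopene, and lycopene cyclases then lead to carotenes with closed rings. In tomato, PSY1 is the isoform of ripening fruit, PSY2 serves mainly green tissue, and loss of PSY1 or of CRTISO gives yellow or orange fruit.

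In comparison with CK, 7 of the 8 genes were higher in ABA-treated fruits and PSY2 was lower, and 7 of the 8 genes were lower in NDGA-treated fruits and PSY2 was higher. Over all entries that averaged 1 FPKM or more, the median log2 ratios were 0.04 and 0.03. About as many entries were thus higher as lower in each comparison. These comparisons use the same CK values, so they are not independent of each other. The ratio of ABA-treated to NDGA-treated fruits holds no CK value. On the log2 scale, however, it equals the difference between the ratios to CK, so it follows from them and adds no separate evidence. ZISO differed most, with 3359 FPKM in ABA-treated fruits, 345 FPKM in NDGA-treated fruits and 1371 FPKM in CK. GGPS2 and PSY1 came next, and PDS was the least different of the genes that were higher after ABA. The level of every gene lay above 0 in all groups.

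The log2 ratio of ABA-treated fruits to CK had a median of 0.81 over the 8 genes and lay between −0.40 and 1.29. Over the 21442 entries above 0 in both groups that averaged 1 FPKM or more over the 3 groups, the median was 0.04, and the central 90% lay between −1.68 and 1.23. GGPS2 and ZISO were at least 2-fold higher in ABA-treated fruits, which is 2 of 8 genes, and 6.7% of all these entries were as well. No gene of the chain was at least 2-fold lower, against 10.5% of all entries. PSY1 lay just under the fold threshold at 1.95-fold. At a log2 ratio of at least 1.5, none of the 8 genes and 3.57% of all entries were called higher.

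The log2 ratio of NDGA-treated fruits to CK had a median of −0.51 over the 8 genes, between −1.99 and 0.44, against a median of 0.03 over 21590 entries with a central 90% between −0.86 and 1.43. GGPS2, PSY1 and ZISO were at least 2-fold lower in NDGA-treated fruits, 3 of 8 genes, while 4.13% of all entries were at least 2-fold lower. No gene of the chain was at least 2-fold higher, against 8.79% of all entries. Of these 3 genes, PSY1 was nearest to the threshold, at 2.09-fold lower. By a log2 threshold of 1.5, ZISO alone of the 8 genes and 2.15% of all entries were called lower.

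Between ABA-treated and NDGA-treated fruits, the median log2 ratio of the genes was 1.30, between −0.84 and 3.28, and that of 21489 entries was −0.01, with a central 90% between −2.30 and 1.37. At least 2-fold higher levels in ABA-treated fruits were found for 6 of the 8 genes, DXS1, GGPS2, PSY1, ZISO, ZDS and CRTISO, and for 8.31% of all entries. Levels at least 2-fold lower in ABA-treated fruits were found for no gene of the chain and for 16.7% of all entries. At a log2 ratio of 1.5 or more, GGPS2, PSY1 and ZISO were called higher, 3 of 8 genes, as were 4.35% of all entries.

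**Figure D1:**
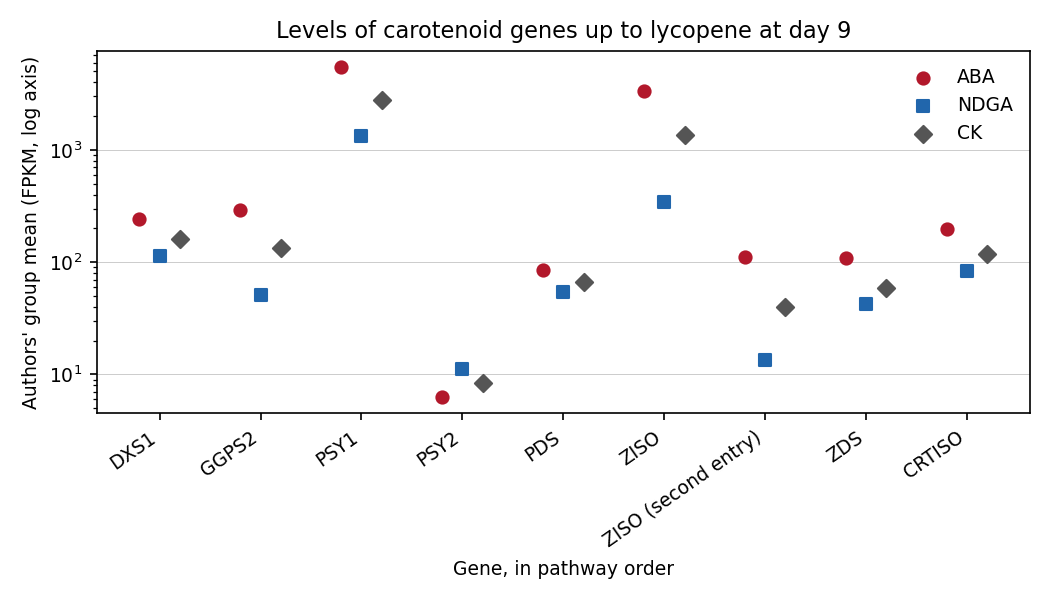
The authors' mean FPKM of each gene (log axis) is plotted in pathway order for ABA-treated fruits (circles), NDGA-treated fruits (squares) and CK (diamonds), 1 value per group and without error bars. ABA-treated fruits lie above CK and NDGA-treated fruits below it for every gene except PSY2, whose levels of 6.30, 11.3 and 8.32 FPKM have the opposite order, and PSY1 and ZISO stand above the other genes in all groups.

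At the entry to the pathway, DXS1 (Solyc01g067890.2, chromosome 1, 69258968 to 69263260 on genome build SL2.40) had 241 FPKM in ABA-treated fruits, 112 FPKM in NDGA-treated fruits and 160 FPKM in CK. Its log2 ratio to CK was thus 0.59 after ABA and −0.51 after NDGA, and the groups given ABA and NDGA differed 2.15-fold. GGPS2 (Solyc04g079960.1, chromosome 4, 61870170 to 61871262) had 291 FPKM in ABA-treated fruits, 51.5 FPKM in NDGA-treated fruits and 135 FPKM in CK. For GGPS2, the ratio to CK was 2.16-fold higher after ABA and 2.62-fold lower after NDGA, and ABA-treated fruits had 5.64-fold the level of NDGA-treated fruits. Of all entries, 98.4% had a ratio of ABA-treated to NDGA-treated fruits below that of GGPS2, and 92.9% below that of DXS1. The order of these precursor genes thus depended on the group, with 1.21 FPKM of GGPS2 per FPKM of DXS1 in ABA-treated fruits, 0.459 in NDGA-treated fruits and 0.840 in CK.

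The isoforms of phytoene synthase, the first enzyme that makes a carotene, differed in level and in direction. PSY1 (Solyc03g031860.2, chromosome 3, 8604956 to 8610361) had 5451 FPKM in ABA-treated fruits, 1339 FPKM in NDGA-treated fruits and 2795 FPKM in CK, and was the most abundant of the 8 genes in every group. It ranked 115 among the 31571 entries in ABA-treated fruits, 282 in NDGA-treated fruits and 146 in CK. ABA-treated fruits held 2655 FPKM more PSY1 than CK, and the difference of NDGA-treated fruits from CK was −1457 FPKM. On the log2 scale these ratios were 0.96 and −1.06, and ABA-treated fruits had 4.07-fold the PSY1 level of NDGA-treated fruits.

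PSY2 (Solyc02g081330.2, chromosome 2, 39912912 to 39917007) had 6.30 FPKM in ABA-treated fruits, 11.3 FPKM in NDGA-treated fruits and 8.32 FPKM in CK, the lowest level of the 8 genes in each group. It was 1.32-fold lower than CK after ABA and 1.35-fold higher after NDGA. Neither ratio stood at an end of the range of all entries, since 23.6% of all entries had a lower ratio of ABA-treated fruits to CK than PSY2, and 78.8% a lower ratio of NDGA-treated fruits to CK. PSY1 exceeded PSY2 865-fold in ABA-treated fruits, 119-fold in NDGA-treated fruits and 336-fold in CK. A ratio within a group does not depend on how the groups were scaled to each other.

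The first desaturase, PDS, which takes phytoene to zeta-carotene, stayed within 2-fold in all comparisons. PDS (Solyc03g123760.2, chromosome 3, 64553926 to 64561664) had 85.7 FPKM in ABA-treated fruits, 54.2 FPKM in NDGA-treated fruits and 66.0 FPKM in CK, which is 1.30-fold higher after ABA and 1.22-fold lower after NDGA. ABA-treated fruits had 1.58-fold the PDS level of NDGA-treated fruits. Next to PDS, PSY1 stood at a ratio of 63.6 in ABA-treated fruits, 24.7 in NDGA-treated fruits and 42.3 in CK, so their levels lay furthest apart in ABA-treated fruits.

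ZISO, the isomerase that acts on zeta-carotene between the desaturases, had the widest range of the 8 genes. Its main entry (Solyc12g098710.1, chromosome 12, 64460869 to 64474976) was 2.45-fold higher than CK in ABA-treated fruits, with 3359 FPKM against 1371 FPKM, and 3.97-fold lower in NDGA-treated fruits, with 345 FPKM. ABA-treated fruits had 9.73-fold the level of NDGA-treated fruits, and 99.1% of all entries had a lower ratio. In NDGA-treated fruits, 1.21% of all entries had a ratio to CK below that of ZISO. Its rank among all entries was 160 in ABA-treated fruits, 647 in NDGA-treated fruits and 234 in CK.

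ZISO was also the only gene of the 8 whose locus overlapped other entries. A second entry with the same gene and coordinates had 110.0 FPKM in ABA-treated fruits, 13.5 FPKM in NDGA-treated fruits and 39.5 FPKM in CK. It was 2.79-fold higher than CK after ABA and 2.92-fold lower after NDGA, the same directions as the main entry, which exceeded it 30.5-fold in ABA-treated fruits, 25.5-fold in NDGA-treated fruits and 34.7-fold in CK. The locus of 14108 bp held 6 entries, 3 of them without an annotated gene. Its remaining annotated entry, the P-loop nucleoside triphosphate hydrolase Solyc12g098700.1, had 52.8 FPKM in ABA-treated fruits, 26.2 FPKM in NDGA-treated fruits and 28.7 FPKM in CK. How reads were divided among these entries was not given in the sources used here, so the absolute level of ZISO is uncertain, while both entries share its direction.

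ZDS and CRTISO, which complete the conversion to lycopene, had similar ratios to each other. ZDS (Solyc01g097810.2, chromosome 1, 80276526 to 80284534) desaturates zeta-carotene and had 108 FPKM in ABA-treated fruits, 42.2 FPKM in NDGA-treated fruits and 58.8 FPKM in CK. This was 1.84-fold higher after ABA and 1.39-fold lower after NDGA. CRTISO (Solyc10g081650.1, chromosome 10, 62006777 to 62012167) straightens the bent product of ZDS into lycopene and had 198 FPKM in ABA-treated fruits, 83.9 FPKM in NDGA-treated fruits and 118 FPKM in CK, 1.67-fold higher after ABA and 1.41-fold lower after NDGA. ABA-treated fruits had 2.56-fold the ZDS level and 2.36-fold the CRTISO level of NDGA-treated fruits.

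**Figure D2:**
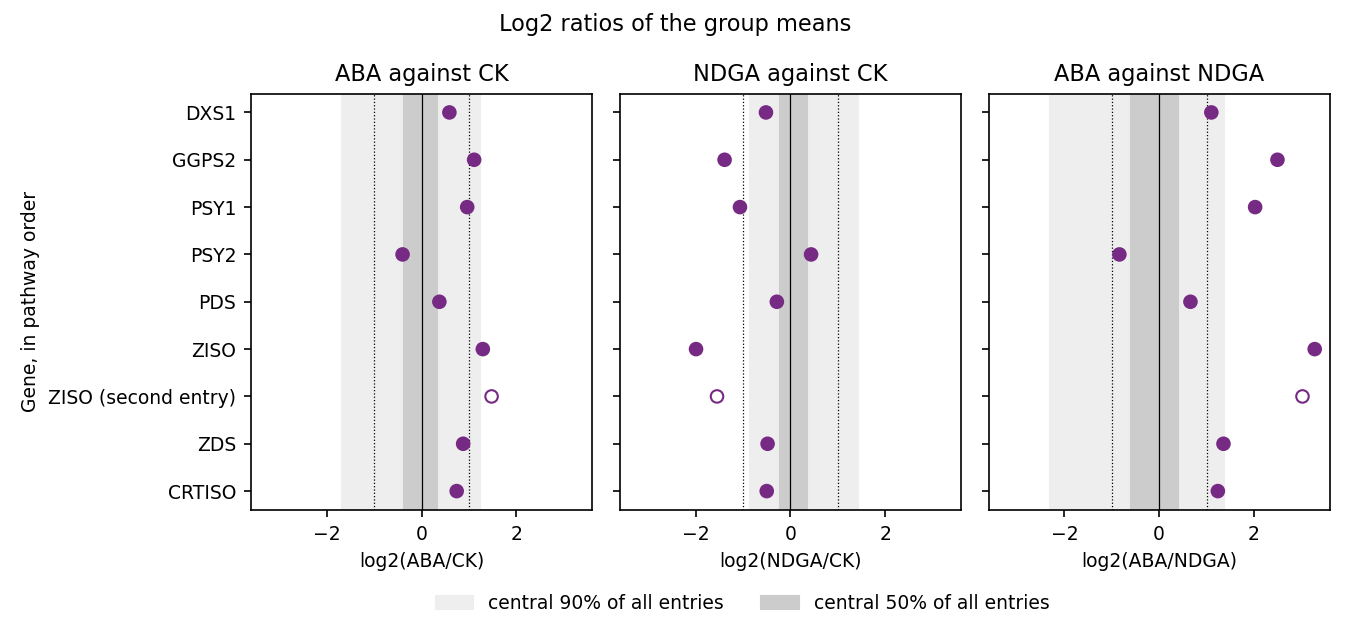
Log2 ratios of the group means are plotted per gene for ABA-treated fruits against CK, NDGA-treated fruits against CK and ABA-treated against NDGA-treated fruits, with the second ZISO entry as an open circle, the central 90% and 50% of all entries shaded and dotted lines at 2-fold. GGPS2, PSY1 and ZISO lie left of the shaded range for NDGA-treated fruits against CK, at −1.39, −1.06 and −1.99, and right of it for ABA-treated against NDGA-treated fruits, at 2.50, 2.03 and 3.28.

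The order of the levels was alike at both ends and differed in the middle. PSY1 and ZISO were first and second and PSY2 was last in all groups. In ABA-treated fruits GGPS2 came next, before DXS1, CRTISO, ZDS and PDS, whereas in NDGA-treated fruits the order was DXS1, CRTISO, PDS, GGPS2 and ZDS, and in CK it was DXS1, GGPS2, CRTISO, PDS and ZDS. The middle genes were close in NDGA-treated fruits, where PDS, GGPS2 and ZDS had 54.2, 51.5 and 42.2 FPKM, and no spread was at hand to say whether such neighbours differ. Summed over the 8 genes, without the second ZISO entry, the level was 9740 FPKM in ABA-treated fruits, 2039 FPKM in NDGA-treated fruits and 4713 FPKM in CK. The uncertain absolute level of ZISO enters this sum, the shares of it and the ratios to ZISO below. PSY1 made up 56.0% of that sum in ABA-treated fruits, 65.6% in NDGA-treated fruits and 59.3% in CK, and ZISO made up 34.5%, 16.9% and 29.1% in the same order of groups.

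Some pairs along the chain kept their proportion better than others. PSY1 had 1.62-fold the level of ZISO in ABA-treated fruits, 3.88-fold in NDGA-treated fruits and 2.04-fold in CK. Between the zeta-carotene genes, ZISO exceeded ZDS 31.1-fold in ABA-treated fruits, 8.19-fold in NDGA-treated fruits and 23.3-fold in CK. The desaturases stayed near each other, with a ratio of ZDS to PDS of 1.26 in ABA-treated fruits, 0.778 in NDGA-treated fruits and 0.891 in CK. PSY1 and GGPS2 were among the pairs that varied less, at 18.8, 26.0 and 20.8 FPKM of PSY1 per FPKM of GGPS2 in ABA-treated fruits, NDGA-treated fruits and CK.

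**Figure D3:**
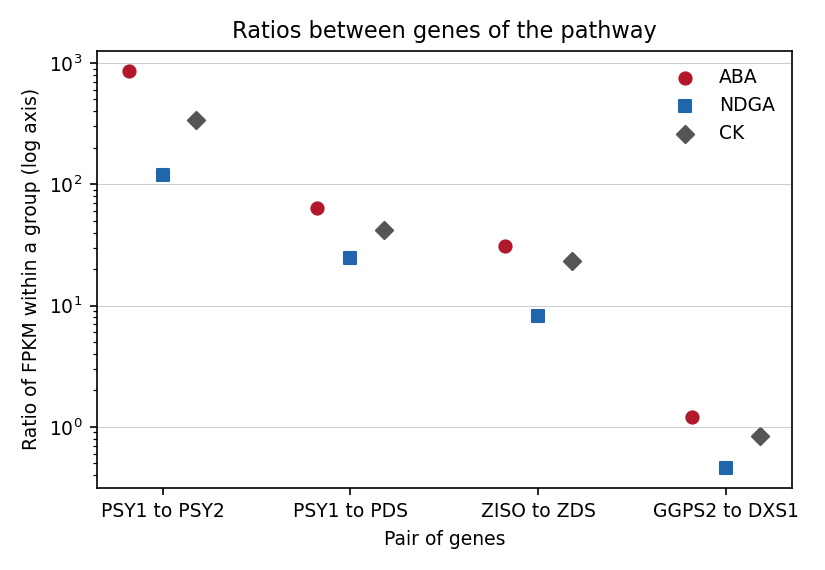
The ratio of FPKM between 2 genes of the pathway within a group (log axis) is plotted for 4 pairs in ABA-treated fruits (circles), NDGA-treated fruits (squares) and CK (diamonds). Each of these 4 pairs has its highest ratio in ABA-treated fruits and its lowest in NDGA-treated fruits, from 865 against 119 for PSY1 to PSY2 down to 1.21 against 0.459 for GGPS2 to DXS1. PSY1 to GGPS2 and PSY1 to ZISO, which are not drawn, have the reverse order.

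Other entries listed for precursor supply had median ratios nearer to 0 than the chain itself. Of 17 entries of this list, which leaves out DXS1 and GGPS2, 14 averaged 1 FPKM or more. These are not all distinct supply genes. They include Solyc07g064660.1 and Solyc09g008920.2, annotated as geranylgeranyl reductases, and the geranyl diphosphate synthase Solyc08g023470.2 in more than 1 entry. In ABA-treated fruits 10 of these were higher than CK and 4 lower, with a median log2 ratio of 0.15. None was at least 2-fold higher and 1 was at least 2-fold lower, against 6.7% and 10.5% of all entries. In NDGA-treated fruits 4 were higher than CK and 10 lower, with a median of −0.12. None was past 2-fold, against 8.79% of all entries at least 2-fold higher and 4.13% at least 2-fold lower. Over 14 entries, such small counts cannot be told apart from these shares. Between ABA-treated and NDGA-treated fruits the median was 0.26, with 12 entries higher and 2 lower. Of the 14 entries, 2 were at least 2-fold higher in ABA-treated fruits and 1 at least 2-fold lower, against 8.31% and 16.7% of all entries.

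The highest ratio of ABA-treated to NDGA-treated fruits in this list was that of Solyc01g009010.2, annotated as the methylerythritol kinase of the same route as DXS1, with 312 FPKM in ABA-treated fruits, 89.0 FPKM in NDGA-treated fruits and 169 FPKM in CK. The isopentenyl diphosphate isomerases, which balance the 2 building blocks of isoprenoids, differed from each other. Solyc04g056390.2 had 302 FPKM in ABA-treated fruits, 127 FPKM in NDGA-treated fruits and 195 FPKM in CK, whereas Solyc05g055760.2 had 8.08 FPKM in ABA-treated fruits, 29.3 FPKM in NDGA-treated fruits and 27.9 FPKM in CK and was 3.45-fold lower than CK after ABA. The hydroxymethylbutenyl diphosphate synthase Solyc11g069380.1 had 118 FPKM in ABA-treated fruits, 62.0 FPKM in NDGA-treated fruits and 83.4 FPKM in CK. The last enzyme of the route, hydroxymethylbutenyl diphosphate reductase (Solyc01g109300.2), had nearly equal levels of 328, 321 and 309 FPKM in the same groups.

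Among the remaining entries for the DXS and GGPS steps, 2 averaged 1 FPKM or more. The DXS gene Solyc08g066950.2 had 15.8 FPKM in ABA-treated fruits, 9.89 FPKM in NDGA-treated fruits and 13.8 FPKM in CK, and Solyc11g010850.1 stayed under 1 FPKM in every group. An entry that merges the GGPS genes Solyc02g085700.1 and Solyc02g085710.2 had 98.3 FPKM in ABA-treated fruits, 74.6 FPKM in NDGA-treated fruits and 79.3 FPKM in CK. GGPS2 was thus above this entry in ABA-treated fruits and CK and below it in NDGA-treated fruits. Solyc02g085720.1 and Solyc11g011240.1, both annotated as GGPS, stayed under 1 FPKM.

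A further 3 entries listed for the steps from phytoene to lycopene were higher in ABA-treated fruits than in CK. Solyc11g011990.1, annotated as an alternative oxidase family protein, had 85.1 FPKM in ABA-treated fruits, 35.3 FPKM in NDGA-treated fruits and 53.1 FPKM in CK. Of the 2 entries annotated as phytoene desaturation 1, in Arabidopsis the dioxygenase that leads to the plastoquinone needed by PDS, Solyc07g045050.2 had 21.4 FPKM in ABA-treated fruits, 12.1 FPKM in NDGA-treated fruits and 14.4 FPKM in CK. Solyc05g041200.2 had 273, 206 and 208 FPKM, so it was higher after ABA and nearly level between NDGA-treated fruits and CK. The 3 entries had a median log2 ratio to CK of 0.57 in ABA-treated fruits and −0.25 in NDGA-treated fruits.

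Lycopene cyclases use up lycopene. Their 5 entries summed to 14.5 FPKM in ABA-treated fruits, 20.6 FPKM in NDGA-treated fruits and 14.5 FPKM in CK, and 2 of them averaged 1 FPKM or more. Solyc04g040190.1 had 12.1 FPKM in ABA-treated fruits, 16.8 FPKM in NDGA-treated fruits and 11.9 FPKM in CK. Solyc06g074240.1 had 1.74, 1.97 and 1.53 FPKM. PSY2 was below Solyc04g040190.1 in every group, and the other genes of the chain were above it. Their median log2 ratio to CK was 0.11 in ABA-treated fruits and 0.43 in NDGA-treated fruits, and neither gene reached 2-fold. A further cyclase under this bound, Solyc10g079480.1, had 0.0674 FPKM in ABA-treated fruits, 1.27 FPKM in NDGA-treated fruits and 0.446 FPKM in CK.

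**Figure D4:**
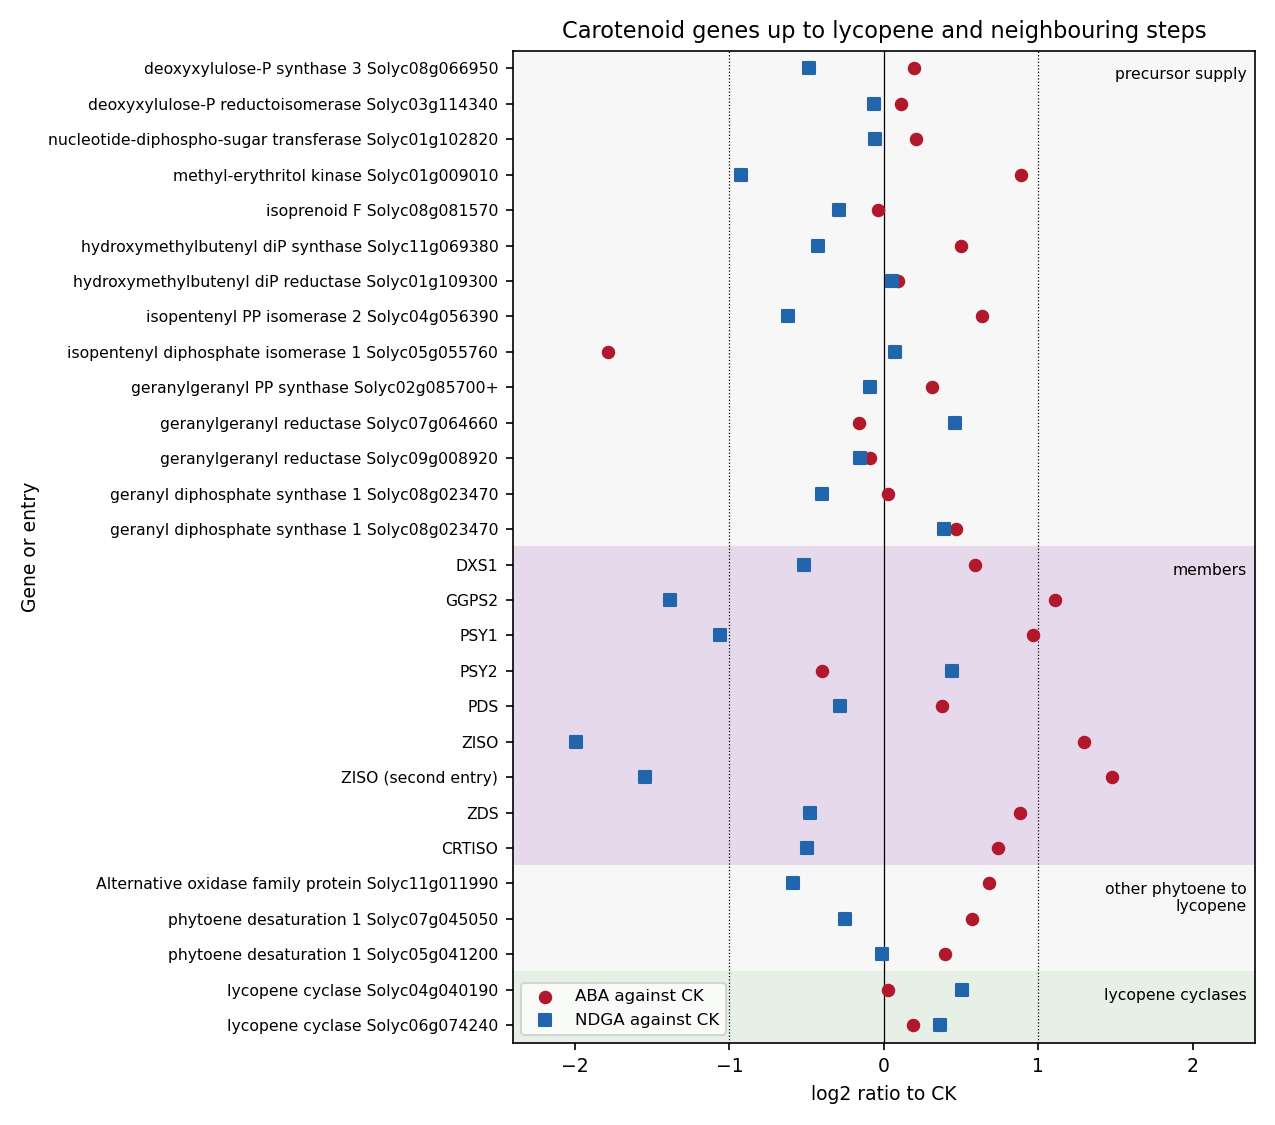
Log2 ratios to CK of ABA-treated fruits (circles) and NDGA-treated fruits (squares) are plotted for the 8 genes (purple band, with both ZISO entries) and for entries of neighbouring steps that averaged 1 FPKM or more, with dotted lines at 2-fold. ABA-treated fruits lie to the right and NDGA-treated fruits to the left for all genes of the purple band except PSY2, while most precursor entries above it lie near 0 and both cyclases lie right of 0 in NDGA-treated fruits.

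By the KEGG terms in the deposited table, a grouping added after the values had been seen, the rest of terpenoid backbone synthesis lay near 0. Its median log2 ratio to CK over 21 entries that averaged 1 FPKM or more was 0.12 in ABA-treated fruits and −0.23 in NDGA-treated fruits. Several of these entries were also in the precursor list above. The rest of the term for carotenoid synthesis, which reaches beyond lycopene to ABA itself, had 14 entries that averaged 1 FPKM or more. In ABA-treated fruits 5 were higher than CK and 9 lower, with a median of −0.61, and in NDGA-treated fruits 9 were higher and 5 lower, with a median of 0.31. The 8 genes, which were left out of both terms, had medians of 0.81 in ABA-treated fruits and −0.51 in NDGA-treated fruits. For all entries these medians were 0.04 and 0.03.

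The genes whose pattern was most like that of PSY1 were sought by the distance between log2 ratios to CK, over the 3 group means and 12791 single-gene entries that averaged 5 FPKM or more. The nearest, at a distance of 0.048, was the UDP-glycosyltransferase Solyc02g070020.1, with 864 FPKM in ABA-treated fruits, 219 FPKM in NDGA-treated fruits and 442 FPKM in CK. The glucosyltransferase Solyc05g006140.1, the nicotinate phosphoribosyltransferase Solyc02g093290.2, the VQ motif protein Solyc04g073950.1 and the major facilitator Solyc03g080020.2 followed, at 0.057 to 0.081. None of these is a gene of the pathway. Of the other genes of the chain, GGPS2 was nearest to PSY1, in place 91, and PSY2 was in place 10817. With only 3 group means, many genes can lie close by.

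Ripening markers differed between the groups as well. RIN, NOR and FUL1, transcription factors of tomato ripening, had 1203, 1126 and 920 FPKM in ABA-treated fruits, 397, 592 and 232 FPKM in NDGA-treated fruits and 672, 881 and 446 FPKM in CK, where the entry of RIN merges a second gene. Of 6 ripening markers, 4 had a ratio for ABA-treated fruits and CK, and all 4 were higher in ABA-treated fruits, while 6 of 6 were lower in NDGA-treated fruits than in CK. All entries had median log2 ratios of 0.04 and 0.03 in these comparisons. The ripening markers PG2a (Solyc10g080210.1), a pectin lyase-like protein, and E8 (Solyc09g089580.2), an oxygenase, were listed at 0 in ABA-treated fruits and were given no ratio there, against 2309 and 7166 FPKM in NDGA-treated fruits and 10575 and 11339 FPKM in CK. For E8 the study itself reports the opposite of this 0, a significant rise after ABA. Such a 0 was not read as absence of the transcript, since the table listed 22 single-gene entries at 0 in ABA-treated fruits, 11 in NDGA-treated fruits and 19 in CK that reached 1000 FPKM or more in another group, and a 0 of this kind can be a failed estimate. The part of the ripening stage in the levels of the 8 genes was not tested.

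Marker lists of other tissue states differed between the groups to unequal degrees. Of photosystem and light harvesting entries with a ratio, 63 of 73 were lower in ABA-treated fruits than in CK, with a median log2 ratio of −1.44, and 50 of 69 were higher in NDGA-treated fruits, with a median of 0.35. The central 50% of all entries reached from −0.36 to 0.34 after ABA and from −0.21 to 0.35 after NDGA. After ABA, 40 photosystem entries were at least 2-fold lower, against 10.5% of all entries. After NDGA, 6 were at least 2-fold higher and 6 lower, against 8.79% and 4.13%. The photosystem list summed to 15411 FPKM in ABA-treated fruits, 17648 FPKM in NDGA-treated fruits and 37649 FPKM in CK, and 16, 11 and 9 of the 106 entries were listed at 0. In NDGA-treated fruits this sum was thus below CK, although most entries with a ratio were higher. Seed gene entries, in pericarp from which seeds had been removed, had a median log2 ratio to CK of −0.14 in ABA-treated fruits and 1.01 in NDGA-treated fruits. After NDGA, 82 of 101 were higher than CK. At least 2-fold higher were 52 of these, against 8.79% of all entries. The seed list summed to 13197 FPKM in ABA-treated fruits, 57549 FPKM in NDGA-treated fruits and 21183 FPKM in CK, and 20, 16 and 20 of the 151 entries were listed at 0. The part of green or seed tissue in the levels of the 8 genes was not tested, and in whole pericarp fewer cells of a type and less RNA per cell cannot be told apart.

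Across the table, 28161 entries were above 0 in ABA-treated fruits, 29875 in NDGA-treated fruits and 28399 in CK. The 904 loci of at most 300 bp held 63.1% of the summed FPKM in ABA-treated fruits, 75.7% in NDGA-treated fruits and 72.3% in CK. The loci of the 8 genes were longer, from 1093 bp for GGPS2 upwards. The median log2 ratio of all entries was within 0.1 of 0 in every comparison.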

How the data were processed

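Poly(A) RNA of 6 libraries, 2 per group, was sequenced in pairs. According to the submitters' processing notes and the study's methods, TopHat2 2.0.9 placed the filtered reads on tomato build SL2.40 (annotation ITAG2.3), and the authors derived FPKM by Cufflinks 2.1.1 and deposited the average of both replicates, 1 value per entry and group. Smaller deposited tables, which also hold the authors' calls of changed genes, hold none of the 8 genes and were not used. In its own comparisons of each treatment with CK, the study called genes changed by fold change and P value. Those calls were not used here either.

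Log2 ratios were formed without a pseudocount from entries above 0 in both groups. Called means at least 2-fold, and counts over all entries used those that averaged 1 FPKM or more over the 3 groups. With averages only, no test was made. A percentile is the share of those entries with a lower ratio. Named were the 8 genes, genes of the pathway and marker lists whose annotation fitted, entries of the precursor, phytoene-to-lycopene and cyclase lists that averaged 1 FPKM or more, and the 5 single-gene entries nearest to PSY1. The genes and lists were chosen with earlier results of these data known. The photosystem and seed lists were taken from annotation words. Alternatives were pseudocounts of 0.1 and 1, rescaling to a median log2 ratio of 0, summed entries per gene, a log2 threshold of 1.5, and other bounds on entries. Ratios were checked on simulated data. Python 3.11.15, numpy 2.4.6, pandas 2.3.3 and matplotlib 3.10.9 were used.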

Additional observations from a re-analysis of the deposited data

How the results depend on the processing

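No paired analysis was possible because the deposited values are averages of both libraries of a group, and leaving out a replicate could not be run for the same reason. The log2 ratios of the 8 genes in the 3 comparisons gave 24 values, which moved by less than 0.25 and kept their direction under pseudocounts of 0.1 and 1, rescaling and summing of entries. These alternatives could move them little. The pseudocounts are small next to most of these levels, rescaling subtracted medians of 0.04, 0.03 and −0.01, and only ZISO had entries to sum. They do not measure the spread between replicates. At a log2 threshold of 1.5 in place of 1, no gene was called higher in ABA-treated fruits than in CK (0 in place of 2), 1 was called lower in NDGA-treated fruits than in CK (ZISO, in place of 3), and 3 were called higher in ABA-treated than in NDGA-treated fruits (in place of 6). The share of all entries at this threshold, added after the values had been seen, was 3.57%, 2.15% and 4.35% in these comparisons and directions. The share of all entries called depends on the bound on FPKM. With a mean FPKM of at least 10, it was 4.21% higher and 5.40% lower for ABA-treated fruits against CK, 4.69% higher and 2.71% lower for NDGA-treated fruits against CK, and 9.57% lower for ABA-treated against NDGA-treated fruits. With no bound it was 14.2% higher and 6.22% lower for NDGA-treated fruits against CK. With a pseudocount of 1, the median of the photosystem list was −1.11 for ABA-treated fruits against CK and −0.82 for ABA-treated against NDGA-treated fruits. The fragments behind low values such as those of PSY2 and the cyclases were not analysed here, so their precision is unknown.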
